A study of Mus musculus with 13 samples.

Results

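Interferon-stimulated genes are the genes that a cell switches on when interferon binds its receptors. A list of 45 such genes was followed here in mouse melanocytes and melanocytic tumours, and 39 of the 45 had a probe set assigned to that gene alone, out of 19937 genes measured. For Isg15, Gbp2, Igtp, Irgm2 and Ifi47 the probe set names several genes, and Ifi44 is not listed, so these 6 carry no value here. Irf1 was the one measured gene with 2 such probe sets, and the set with the higher mean was used. Values are log2(intensity + 1), and a difference of 1 on this scale is a doubling. Each array reports the level of a gene on its own probe set, so a gene's level is compared between arrays, and the median gene of an array serves only to show how dim a probe set is.

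The arrays come from a study of how growth arrest and tumour formation follow from an activated Braf allele (BrafV600E) when Cdkn2a or Lkb1 is also altered. Lkb1, the kinase encoded by Stk11, restrains mTORC1, and Cdkn2a encodes inhibitors of the cell cycle. There were 13 arrays, 1 per sample, in 6 groups, all from in vivo specimens. The sorted material was melanocytes purified by FACS. It comprised 2 samples with altered Cdkn2a and wild-type Braf at day 19, 2 samples of Cdkn2a/Braf genotype at day 19, taken before growth arrest, and 2 of Cdkn2a/Braf genotype at day 50, taken after it. The unsorted material was tissue. It comprised 2 Cdkn2a/Braf melanomas, 2 Cdkn2a/Braf/Lkb1 melanomas and 3 samples of pooled Lkb1/Braf melanocytic proliferations. A Cdkn2a alteration was shared by all groups except the proliferations, and a Braf allele by all except the Cdkn2a-only melanocytes. The labels give no Cre driver, strain, sex or age, and do not say from which event the days were counted.

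Type I interferons signal through Jak1 and Tyk2 to a complex that holds Stat2 and Irf9 and binds the interferon-stimulated response element (ISRE) in promoters. Interferon gamma signals through Jak1 and Jak2 to the gamma-activated site (GAS) of its target promoters, and Irf1 carries part of that response onward. The target genes fall into RNA sensors, enzymes that block viral RNA and protein synthesis, membrane proteins that block virus entry or release, large GTPases that attack the vacuoles of intracellular microbes, and regulators that shut the response down. In skin and its tumours such genes are expressed by melanocytes as well as by keratinocytes, endothelial cells and leukocytes.

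RefSeq promoter windows of the GRCm38.p6 build, 300 bases long and mostly upstream of a gene's annotated start, were available for 33 of the 45 genes and for 27 of the 39 measured ones. The ISRE core was searched as GAAANNGAA on either strand, so that it reads TTCNNTTTC on the other. It was present in 17 of the 27 measured genes (63.0%), against 9.20% of the 15613 measured genes with a window. Requiring a further A after the core left 15 of 27 (55.6%), against 3.89%. The GAS core, TTCNNNGAA, which reads the same on both strands, was present in 9 of 27 (33.3%), against 8.99%. These are matches of letters and not tests of binding. Windows are printed for 3 genes that were higher at day 50 and lie at different steps of the response, and for the Trim30 pair that differed most between the melanomas. Each runs 5′ to 3′ in the direction of its gene, with ISRE core matches in capitals.
Ifit3: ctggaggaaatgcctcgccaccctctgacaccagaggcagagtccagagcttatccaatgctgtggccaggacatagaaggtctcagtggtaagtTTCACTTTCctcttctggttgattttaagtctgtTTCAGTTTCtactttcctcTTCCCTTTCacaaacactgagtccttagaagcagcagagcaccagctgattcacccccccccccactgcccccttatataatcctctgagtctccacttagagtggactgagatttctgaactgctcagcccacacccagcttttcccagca
Stat2: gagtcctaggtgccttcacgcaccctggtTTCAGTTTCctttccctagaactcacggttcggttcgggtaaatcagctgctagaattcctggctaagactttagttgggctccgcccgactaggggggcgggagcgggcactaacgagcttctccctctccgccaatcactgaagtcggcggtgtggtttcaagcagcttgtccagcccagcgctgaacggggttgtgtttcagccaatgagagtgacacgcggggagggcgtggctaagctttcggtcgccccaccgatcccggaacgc
Ifitm3: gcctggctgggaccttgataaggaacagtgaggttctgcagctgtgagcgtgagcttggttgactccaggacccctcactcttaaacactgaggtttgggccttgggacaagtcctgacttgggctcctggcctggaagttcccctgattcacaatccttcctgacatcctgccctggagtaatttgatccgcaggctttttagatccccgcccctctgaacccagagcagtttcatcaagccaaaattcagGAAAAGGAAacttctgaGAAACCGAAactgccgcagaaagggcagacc
Trim30a: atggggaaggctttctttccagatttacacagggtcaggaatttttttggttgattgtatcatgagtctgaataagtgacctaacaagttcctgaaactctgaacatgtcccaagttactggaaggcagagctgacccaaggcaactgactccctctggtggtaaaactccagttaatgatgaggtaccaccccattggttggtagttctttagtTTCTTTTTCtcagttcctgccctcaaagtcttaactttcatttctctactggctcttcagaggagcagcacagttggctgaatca
Trim30d: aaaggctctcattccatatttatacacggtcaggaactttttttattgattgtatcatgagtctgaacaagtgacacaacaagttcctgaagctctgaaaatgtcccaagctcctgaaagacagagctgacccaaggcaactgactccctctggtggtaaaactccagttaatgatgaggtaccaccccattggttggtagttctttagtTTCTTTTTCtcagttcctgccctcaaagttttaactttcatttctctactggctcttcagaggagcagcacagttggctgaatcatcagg
The Ifit3 window lies at chr19:34583279-34583578 on the plus strand and holds 3 matches, which begin at positions -155, -121 and -102 when the first transcribed base is 0. The Stat2 window, chr10:128270248-128270547 on the plus strand, holds 1 match at -221. In Ifitm3, chr7:141010695-141010994 on the minus strand, both matches lie just past the start, at 2 and 19. Trim30a has a pair of windows in the table, of which the one at chr7:104465144-104465443 is shown, with a match at -35. The Trim30d window, chr7:104507800-104508099, has a match at -40. The Trim30a and Trim30d windows, both on the minus strand, were identical at 276 of 295 aligned bases (93.6%).

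Several features of the arrays bear on every result. The summed intensity of 12 melanocyte markers was 47438 to 52648 in both day 19 groups, 24693 and 32899 at day 50, 3576 to 3993 in the proliferations and 647 to 1164 in the melanomas. In the 4 melanomas 8 of the 12 markers lay below the median gene of every array, among them the pigment genes Tyr (3.99 to 4.45 in log2 units) and Dct (4.78 to 5.95). The other 4 lay above it on at least 1 melanoma array, and these were Kit (6.70 to 8.07), Mlana (6.49 to 6.98), Mitf (6.07 to 6.94) and Sox10 (5.97 to 8.13). The sum of 4 pan-leukocyte markers was 203 to 419 in sorted samples, 1471 to 1709 in Cdkn2a/Braf melanomas, 3150 to 4618 in Cdkn2a/Braf/Lkb1 melanomas and 1558 to 1853 in proliferations. In such mixed samples a change in the number of cells of a type and a change in RNA per cell cannot be told apart. Sorted against tissue material and group cannot be told apart either. The interquartile range of all genes was 1.94 and 1.93 on the day 50 arrays, 2.00 to 2.11 in the proliferations and 2.45 to 2.89 on the other 8 arrays, and counts after scaling to a common range are given where they moved. Xist, transcribed from the inactive X of females, was 9.57 and 9.95 at day 50, 10.47 to 10.98 in the proliferations, 4.42 to 4.76 in the melanomas, and high on 1 of 2 arrays in each day 19 group. Stk11 was 8.36 and 7.86 in Cdkn2a/Braf/Lkb1 melanomas and 8.90 and 8.63 in Cdkn2a/Braf melanomas (difference -0.65 ± 0.39 SE, limma adjusted p = 0.396). The sources used here do not say whether its probes lie in the deleted part.

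**Figure D1:**
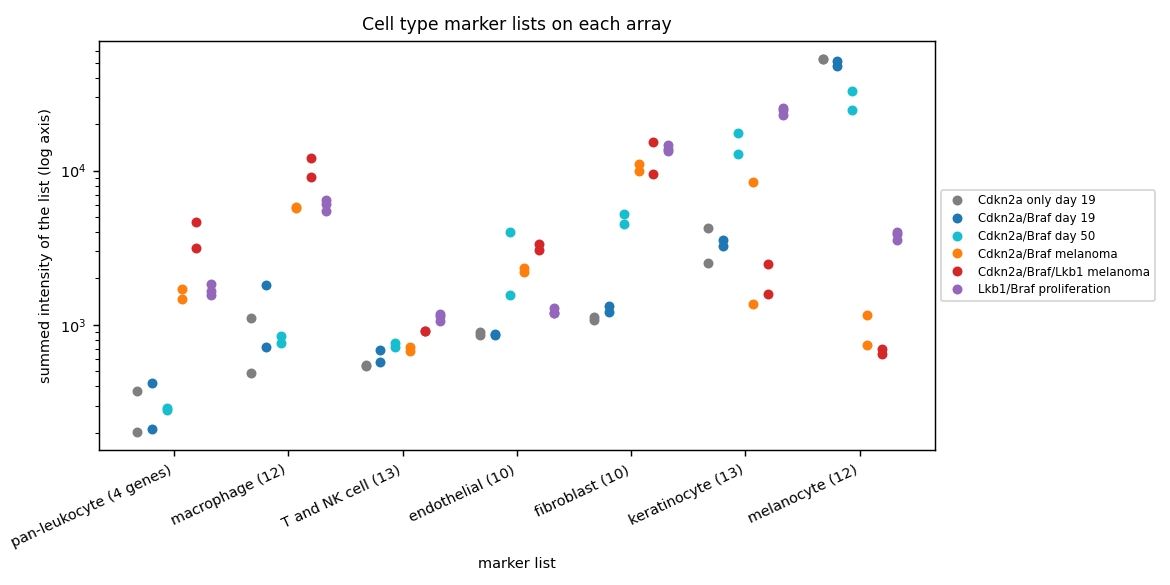
Summed intensity (log axis, arbitrary units) of pan-leukocyte, macrophage, T and NK cell, endothelial, fibroblast, keratinocyte and melanocyte marker lists on each of 13 arrays. Points are coloured by group, with the number of measured markers in brackets. The list of 6 measured plasmacytoid dendritic cell markers is not drawn, and its sums ran from 1220 to 2414. Melanocyte markers fall from 47438 to 52648 in the day 19 samples to 647 to 1164 in the melanomas, and pan-leukocyte markers are highest in the Cdkn2a/Braf/Lkb1 melanomas, at 3150 to 4618.

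Across the 6 groups most of the interferon-stimulated genes were lowest in day 19 melanocytes. The lowest group mean lay in one of the day 19 groups for 27 of 39 genes (69.2%), against 23.6% of all genes. The highest lay in Cdkn2a/Braf/Lkb1 melanomas for 17 (43.6%, against 17.7% of all genes), in day 50 melanocytes for 14 (35.9%, against 36% of all genes), in Cdkn2a/Braf melanomas for 5, in Cdkn2a-only melanocytes for 2 and in proliferations for 1. The median level over the 39 genes was 5.92 to 6.17 on the 4 day 19 arrays, 6.70 and 6.87 at day 50, 6.46 to 6.73 in proliferations, 6.81 and 6.86 in Cdkn2a/Braf melanomas and 6.95 and 7.10 in Cdkn2a/Braf/Lkb1 melanomas. The median over all genes stayed between 6.31 and 6.57 on the 13 arrays. Group means spanned more than 2 log2 units in 12 genes, led by Ly6e (5.15), Trim30a (4.05) and Trim30d (3.65). They spanned under 0.5 in 5, which were Ifi35, Adar, Irf9, Cmpk2 and Mx1. Dhx58, Rsad2, Oas3, Mx1, Mx2, Usp18 and Cmpk2 lay below the median gene on all 13 arrays, where an array resolves changes less well.

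**Figure D2:**
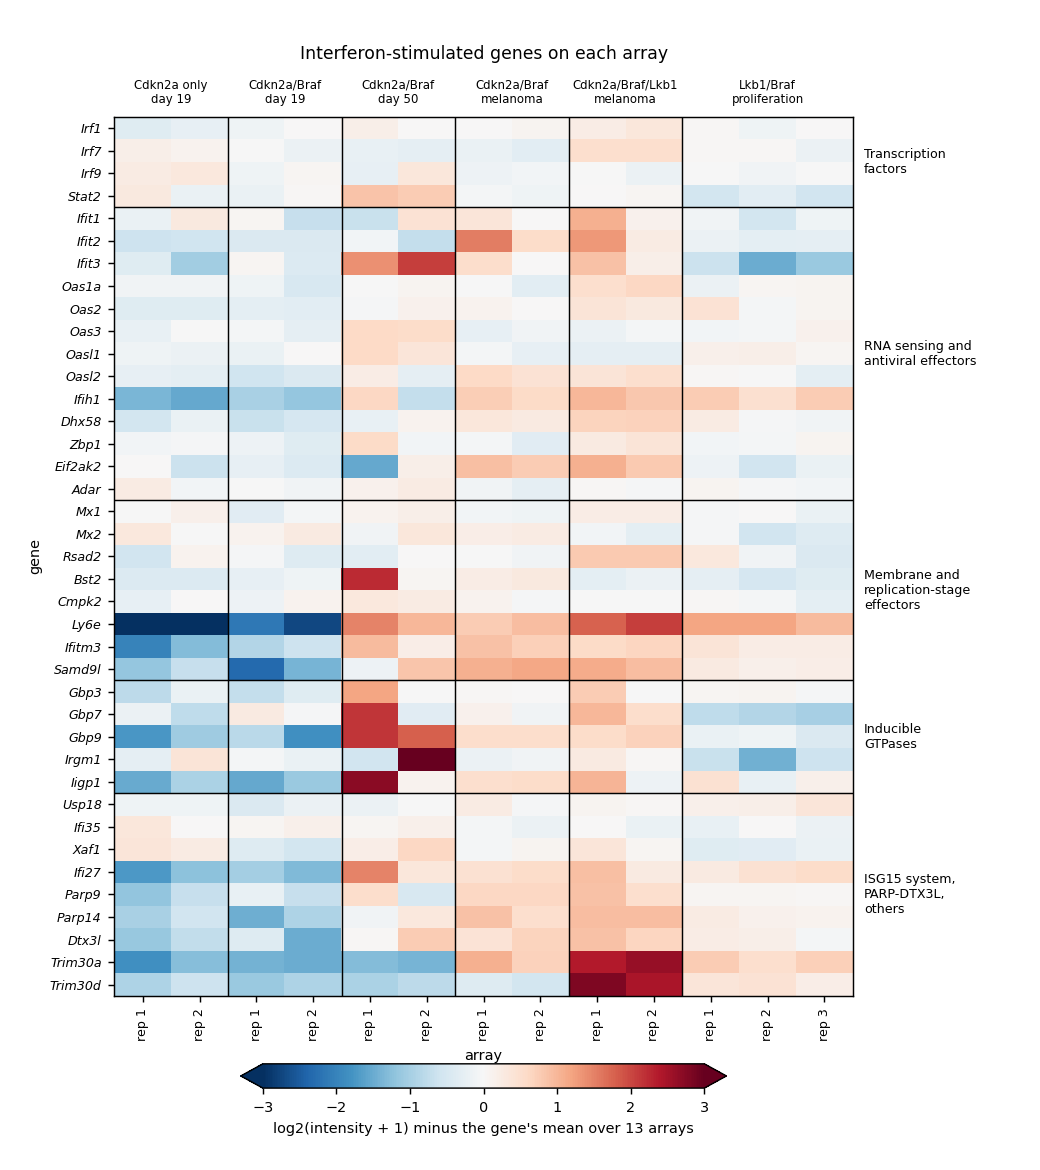
Level of each of the 39 measured interferon-stimulated genes (rows, by role) on each array (columns, by group), as log2(intensity + 1) minus the gene's mean over the 13 arrays. Day 19 columns are mostly blue. The day 50 pair shares high Ly6e, Gbp9 and Ifit3 but splits on Iigp1, Bst2, Gbp7 and Irgm1, and Trim30a and Trim30d are darkest in Cdkn2a/Braf/Lkb1 melanomas.

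The first question was whether these genes differ between Cdkn2a/Braf melanocytes before and after growth arrest. Samples before arrest were all of day 19 and those after it all of day 50. No day 50 sample lacked the Braf allele, so growth arrest and day cannot be told apart. At day 50, 15 of the 39 rose and none fell (limma, Benjamini-Hochberg adjusted p under 0.05 over all genes), when 25.6% of all genes were called, 11.1% as higher and 14.5% as lower. Ly6e and Gbp9 rose most, by 3.68 and 3.30, and the rises took in a subunit of the interferon-activated transcription complex (Stat2), RNA sensors, membrane proteins and GTPases. The median difference of the 39 was 0.50, against 0.17 over all genes, and 36 of 39 differences were above 0. Both day 50 arrays lay above both day 19 arrays for 26 genes, as did 45.9% of all genes. The fit pools the spread of all 13 arrays, and on the 6 sorted arrays alone 4 of the 39 were called higher, which were Ly6e, Gbp9, Ifit3 and Oas3, when 1.75% of all genes were called higher and 5.78% lower.

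Among the 4 transcription factors Stat2 rose and the others did not pass the test. Stat2, which brings the activation domain to the ISRE-binding complex, read 7.42 and 7.66 at day 19 and 8.47 and 8.37 at day 50, so the pairs were apart by more than either pair's own gap (0.88 ± 0.17 SE, adjusted p = 0.00574). Irf9, its DNA-binding partner, had a difference of 0.10 ± 0.18 (adjusted p = 0.672). Irf7, which drives transcription of interferon alpha genes, had one of -0.15 ± 0.13 (adjusted p = 0.354). The rise in Stat2 was thus not accompanied by a call on Irf9, Irf7 or Irf1.

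In the RNA sensing and antiviral class 4 of 13 rose. Ifit3, of the IFIT family that blocks translation of foreign RNA, read 7.76 and 7.29 at day 19 and 9.07 and 9.78 at day 50 (1.90 ± 0.38, adjusted p = 0.00656). Its neighbours in the family did not follow. Ifit1 had a difference of 0.20 ± 0.42 and Ifit2 one of 0.04 ± 0.37, with adjusted p of 0.720 and 0.937. Oas3 and Oasl1, of the oligoadenylate synthetase family whose enzymes make the activator of RNase L, rose by smaller steps with the pairs well apart. Oas3 read 5.79 and 5.58, then 6.43 and 6.38 (0.72 ± 0.14, adjusted p = 0.00534), and Oasl1 differed by 0.57 ± 0.13 (adjusted p = 0.0127). Ifih1, a cytoplasmic sensor of long double-stranded RNA, read 5.80 and 5.62 at day 19 and 7.39 and 6.05 at day 50. The groups did not overlap, but 1 of the day 50 arrays stood far above the other (1.01 ± 0.33, adjusted p = 0.0490). The call on Ifih1 was lost in 8 of 12 alternative settings, and its difference was 0.34 without the first day 50 array. Dhx58, a related helicase, lay just outside the threshold at 0.52 ± 0.17 (adjusted p = 0.0503). Eif2ak2, the kinase that halts translation on binding double-stranded RNA, was split at day 50 (5.38 and 7.11, against 6.69 and 6.52 at day 19).

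In the class of membrane and replication-stage effectors 3 of 8 rose, among them Ly6e, which changed most of the 39. Ly6e, a surface protein that alters virus entry, read 7.05 and 6.46 at day 19 and 10.68 and 10.19 at day 50 (3.68 ± 0.23, adjusted p = 1.45e-05). Samd9l, an antiviral and growth-restraining protein, read 5.08 and 6.02 at day 19 and 7.25 and 8.25 at day 50 (2.20 ± 0.34, adjusted p = 0.00184). Ifitm3, which stops viruses from fusing in endosomes and whose promoter is printed above, read 10.70 and 10.96, then 12.53 and 11.77 (1.32 ± 0.26, adjusted p = 0.00670). In all 3 the day 50 pair lay above the day 19 pair. Bst2, the tether that holds budding virus at the cell surface, was near the threshold with 6.92 and 7.03 at day 19 and 9.40 and 7.21 at day 50 (1.33 ± 0.50, adjusted p = 0.0729). Its higher mean came almost wholly from 1 array. Mx1, Mx2, Rsad2 and Cmpk2, which act against viral replication, had differences between -0.08 and 0.34, and none was called.

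Of the 5 measured GTPases 3 rose. Gbp9, a guanylate-binding protein, read 6.18 and 5.15 at day 19 and 9.15 and 8.79 at day 50 (3.30 ± 0.31, adjusted p = 0.000136). The immunity-related GTPase Iigp1, which disrupts parasite vacuoles, read 4.53 and 4.96, then 8.79 and 6.18 (2.74 ± 0.68, adjusted p = 0.0182). Gbp3 read 5.31 and 5.67, then 7.20 and 6.01 (1.11 ± 0.37, adjusted p = 0.0487), and lost its call in 9 of 11 alternative settings. For Gbp3 and Iigp1 the first day 50 array was by far the higher, and without it their differences were 0.52 and 1.44. Irgm1, a regulator of the same family, did the opposite: 6.34 on the first and 10.32 on the second day 50 array, against 6.85 and 6.72 at day 19 (1.54 ± 0.93, adjusted p = 0.215). Gbp7 was 9.86 and 7.38 at day 50 against 8.0 and 7.68 at day 19, and was not called either.

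In the remaining class of 9 regulators 4 rose. Ifi27, a small membrane protein that is a common marker of interferon exposure, read 8.20 and 7.90 at day 19 and 10.72 and 9.56 at day 50 (2.09 ± 0.34, adjusted p = 0.00240). Dtx3l, a ubiquitin ligase that works with Parp9, read 6.29 and 5.19, then 6.73 and 7.45 (1.35 ± 0.34, adjusted p = 0.0188). Parp14, an ADP-ribosyltransferase, read 5.06 and 5.62, then 6.44 and 6.86 (1.31 ± 0.22, adjusted p = 0.00310). In each of these the pairs did not overlap, although the difference of Dtx3l was 0.80 (adjusted p = 0.117) without day 19 replicate 2. Xaf1, a promoter of apoptosis, rose by 0.88 ± 0.17 (adjusted p = 0.00515). Parp9, the partner of Dtx3l, had a difference of 0.48 ± 0.30 that did not pass (adjusted p = 0.238). Trim30a, Trim30d and Usp18, the protease that removes Isg15 and dampens the receptor, differed by 0.10, 0.16 and 0.20, and none of them was called.

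The day 50 replicates were the least alike of any group. The pooled SD within the pair was 0.79 over the 39 genes and 0.50 over all genes, against 0.29 and 0.21 in the Cdkn2a/Braf day 19 pair. Replicate 1 was above replicate 2 by more than 1 in 7 genes (Iigp1, Gbp7, Bst2, Ifih1, Gbp3, Ifi27 and Parp9). Replicate 2 was above replicate 1 by more than 1 in Irgm1, Eif2ak2 and Ifit1, and 21 genes were within 0.5. The median difference of the 39 was 0.39 without day 50 replicate 1 and 0.67 without replicate 2, against 0.13 and 0.18 over all genes. Without day 19 replicate 1 or 2 it was 0.57 or 0.58, against 0.16 or 0.17. The calls on Ly6e, Gbp9 and Oas3 held in every alternative setting tried. Scaling all arrays to a common interquartile range gave 13 rises and 3 falls, when 2065 of 19937 genes were called higher and 3284 lower. It moved the median of all genes from 0.17 to -0.05.

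Markers of other cells moved with day 50. Of 10 endothelial markers 8 were higher, and their sum was 872 and 864 at day 19 and 4009 and 1561 at day 50, highest on the replicate with more Iigp1, Gbp7 and Bst2. Of 10 fibroblast markers 6 were higher and 1 lower, with sums of 1211 and 1325, then 4533 and 5207. The keratinocyte sum went from 3557 and 3248 to 17542 and 12839, again highest on that replicate, with 3 of 13 markers called higher. None of the 4 pan-leukocyte or 13 T and NK cell markers was called, and 1 of 12 macrophage markers was higher and 1 lower. Of 6 plasmacytoid dendritic cell markers, a list that includes Bst2, 1 was higher (Siglech). No marker was at 0, since the lowest value in the data is 3.35. Melanocyte markers were lower in 8 of 12. The part of these other cells in the rise of the interferon-stimulated genes was not tested.

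The ISRE core was present in 7 of the 10 genes that rose at day 50 and have a window (70%), and in 10 of the 17 with a window that were not called (58.8%). The GAS core was present in 1 of the 10 and in 8 of the 17. Among the printed windows Ifit3, Stat2 and Ifitm3 belong to the genes that rose, and Trim30a and Trim30d, with a match of their own, to those that were not called.

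**Figure D3:**
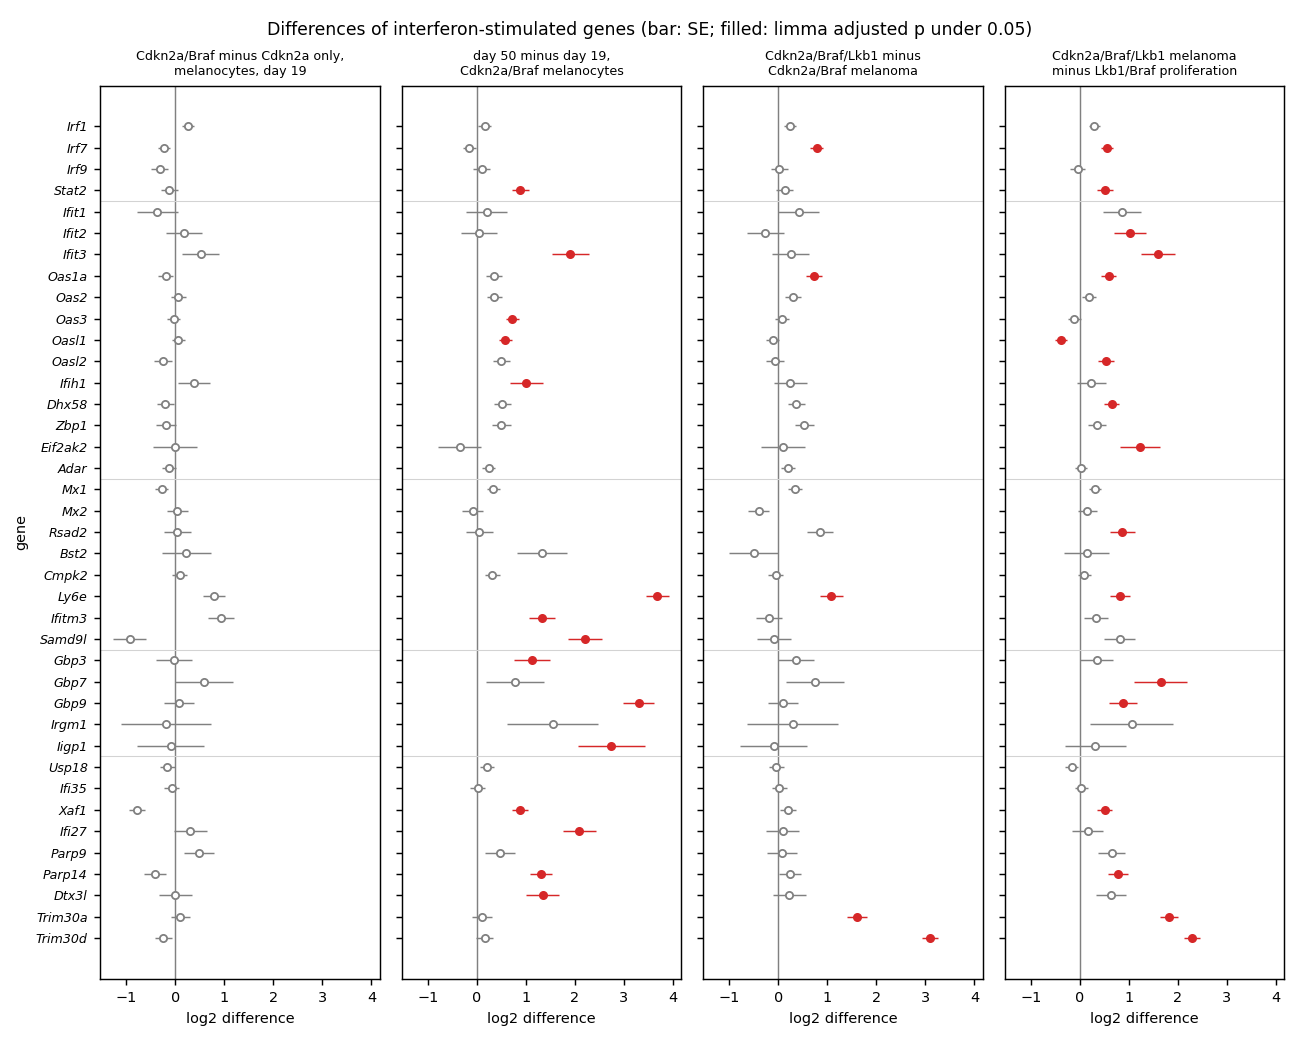
Log2 difference (point) with its standard error (bar) for the 39 genes in 4 of the comparisons, with filled red points for a limma adjusted p under 0.05. The Braf comparison has no filled point, the day 50 comparison has 15, the comparison of the melanomas has 5 led by Trim30d, and the last has 17, of which Oasl1 alone lies below 0.

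The second question was whether Braf activation itself, before growth arrest, goes with a difference in these genes. At day 19 none of the 39 was called between melanocytes with and without the Braf allele, when 0.291% of all genes were, 0.236% as higher and 0.0552% as lower, and their median difference was -0.04 against 0.02 over all genes. That median was -0.16 without Cdkn2a-only replicate 1 and 0.06 without replicate 2, so its direction turned on 1 array. At an unadjusted p under 0.05 there were 4, 10.3% of the 39, against 7.25% of all genes, and they are given as values only. Xaf1 read 7.16 and 7.04 in Cdkn2a-only and 6.40 and 6.23 in Cdkn2a/Braf melanocytes (-0.78 ± 0.17, adjusted p = 0.117). Ifitm3 read 9.56 and 10.26, then 10.70 and 10.96 (0.92 ± 0.26, adjusted p = 0.322). For Ly6e the values were 5.82 and 6.11, then 7.05 and 6.46 (0.79 ± 0.23, adjusted p = 0.341). Samd9l, at 6.25 and 6.71, then 5.08 and 6.02, lay the other way (-0.93 ± 0.34, adjusted p = 0.529). These 4 thus lay in both directions, and no alternative setting called any of the 39. Among other genes of the pathway, 2 of 16 sensing genes and 1 of 38 further interferon-stimulated genes were higher in Cdkn2a/Braf melanocytes. These were the sensor adaptors Sting1 (1.54 ± 0.19) and Myd88 (1.08 ± 0.17) and the chemokine Cxcl11 (1.26 ± 0.15), with adjusted p of 0.0109, 0.0372 and 0.0103. None of 14 ligand genes, 6 receptor genes, 10 JAK, STAT and IRF genes or 9 negative regulators was called.

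The third question was what Lkb1 alteration added to Cdkn2a/Braf melanoma. In this comparison 5 of the 39 genes were higher and none lower in Cdkn2a/Braf/Lkb1 melanomas, when 2.56% of all genes were called, 1.83% as higher and 0.732% as lower. The differences were led by the Trim30 pair. Trim30d, a paralogue of Trim30a, read 4.51 and 4.33 in Cdkn2a/Braf and 7.70 and 7.33 in Cdkn2a/Braf/Lkb1 melanomas (3.09 ± 0.17, adjusted p = 5.11e-05). Trim30a, known in mice as a brake on Toll-like receptor signalling, read 8.26 and 7.90, then 9.57 and 9.80 (1.61 ± 0.20, adjusted p = 0.00429). The Trim30d level in Cdkn2a/Braf melanomas was close to that of the sorted melanocytes (3.77 to 4.27), near the floor of the arrays. The size of its difference is thus not exact, and ran from 2.44 to 3.28 over the alternative settings. The gap for Trim30a was smaller, from a Cdkn2a/Braf melanoma level that already lay above the sorted samples (5.34 to 5.92). Whether probes of one gene also bind transcripts of the other was not tested. Both calls held in every alternative setting tried.

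Ly6e, Irf7 and Oas1a made up the rest of the calls. Ly6e read 9.96 and 10.11 in Cdkn2a/Braf and 10.97 and 11.26 in Cdkn2a/Braf/Lkb1 melanomas (1.08 ± 0.23, adjusted p = 0.0395). Irf7 read 5.96 and 5.84, then 6.68 on both arrays (0.78 ± 0.13, adjusted p = 0.0118). Oas1a, an oligoadenylate synthetase, read 6.97 and 6.67, then 7.50 and 7.60 (0.73 ± 0.16, adjusted p = 0.0436). The groups did not overlap in any of these, but 18 of the 39 genes lay apart as higher and 4 as lower. For this comparison the share of all genes is not given here. The steps were small and the calls less steady. Ly6e lost its call in 8 of 12 alternative settings and Oas1a in 7 of 12, and Irf7 lost it without Cdkn2a/Braf melanoma replicate 2. Closest outside the threshold was Rsad2, an enzyme that makes a chain-terminating nucleotide, with 5.40 and 5.32, then 6.21 and 6.19 (0.85 ± 0.27, adjusted p = 0.131). The IFIT genes, Stat2, Bst2 and the 5 GTPases had differences between -0.51 and 0.75, and none was called. The median difference of the 39 was 0.20, against -0.04 over all genes. Leaving out single arrays gave medians of 0.10 to 0.34, against -0.06 to -0.004 over all genes.

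Sums of leukocyte markers differed beside these genes, and keratinocyte sums differed within the Cdkn2a/Braf pair. The macrophage sum was 5835 and 5730 in Cdkn2a/Braf and 11995 and 9115 in Cdkn2a/Braf/Lkb1 melanomas, with Cd68 (1.65) and Fcgr1 (1.43) called among 12 markers. The pan-leukocyte sums were 1709 and 1471, then 3150 and 4618, with none of 4 called, and Cd4 was the 1 of 13 T and NK cell markers called. The endothelial sum was 2355 and 2189, then 3037 and 3361, with none of 10 called, and 1 of 10 fibroblast markers was higher. Cdkn2a/Braf melanoma replicate 2 stood apart by its keratinocyte sum, 8456 against 1358 on replicate 1 and 1581 and 2482 in the melanomas with altered Lkb1, and none of 13 keratinocyte markers was called. Whether other cells carry the higher Trim30a, Trim30d, Irf7, Oas1a and Ly6e was not tested. The sensor adaptor Sting1 (1.71 ± 0.19, adjusted p = 0.00308) and the leukocyte-expressed factors Irf5 (0.68 ± 0.15, adjusted p = 0.0492) and Irf8 (0.62 ± 0.14, adjusted p = 0.0447) were also higher in the melanomas with altered Lkb1.

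**Figure D4:**
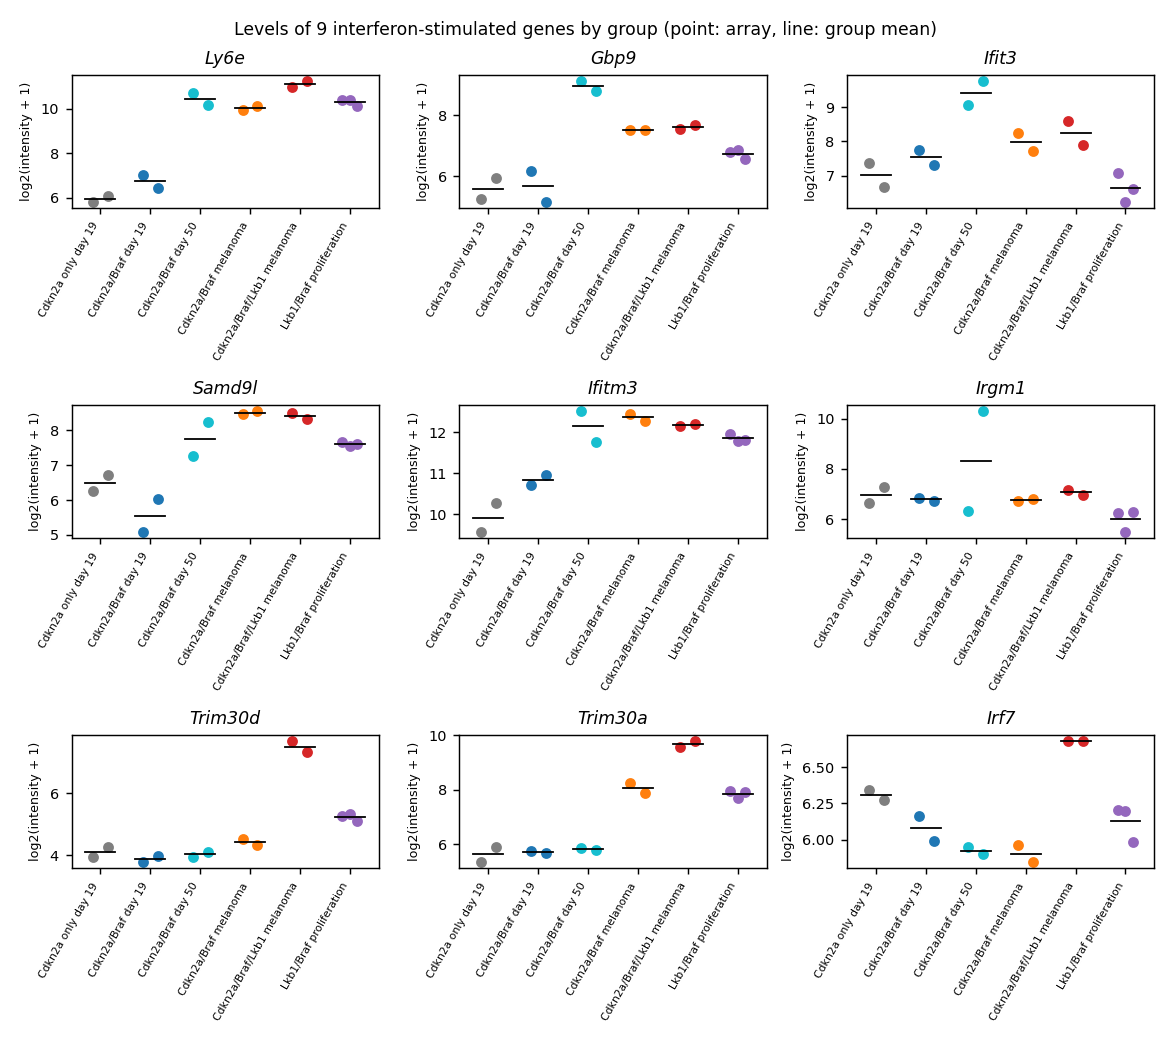
Levels of 9 genes, log2(intensity + 1), with a point for each array and a line at each group's mean. Ly6e and Gbp9 are low in both day 19 groups, Ifit3 is highest at day 50 and lowest in the proliferations, Irgm1 splits the day 50 pair at 6.34 and 10.32, and Trim30d, Trim30a and Irf7 are highest in Cdkn2a/Braf/Lkb1 melanomas.

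Melanomas were next set against the pooled Lkb1/Braf proliferations, which share uncultured tissue as material. In Cdkn2a/Braf melanomas 3 genes were higher and 1 was lower, 10.3% of the 39, when 21.5% of all genes were called, 12.6% as higher and 8.88% as lower, so the share was below the background. Ifit3 read 8.24 and 7.73 in these melanomas and 7.08, 6.23 and 6.60 in the proliferations (1.35 ± 0.34, adjusted p = 0.0201). Ifit2, of the same family, read 7.37 and 6.38 against 5.66, 5.56 and 5.56 (1.29 ± 0.34, adjusted p = 0.0222). Oasl2 was higher by 0.60 ± 0.16 (adjusted p = 0.0263). Trim30d was the exception, lower in the melanomas at 4.51 and 4.33 against 5.26, 5.32 and 5.10 (-0.81 ± 0.16, adjusted p = 0.00536). All 3 calls on higher genes were lost without Cdkn2a/Braf melanoma replicate 1, and likewise without proliferation replicate 2 or 3. Ifit2 differed by 0.79 without that melanoma array. The 7 tissue arrays alone gave 13 higher and 1 lower, 35.9% of the 39, when 28.5% of all genes were called, 18.6% as higher and 9.9% as lower, so the share was not below the background there. Keratinocyte markers were lower in these melanomas in 10 of 13, melanocyte markers in 8 of 12 and T and NK cell markers in 5 of 13. Endothelial markers were higher in 3 of 10 and fibroblast markers in 2 of 10, 1 of 12 macrophage markers was higher and 1 lower, and none of 4 pan-leukocyte markers was called. Their part in these differences was not tested.

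In Cdkn2a/Braf/Lkb1 melanomas 16 genes were higher and 1 lower than in the proliferations. The 17 calls were 43.6% of the 39, close to the 40.6% of all genes called, but the directions of all genes were balanced, with 20% higher and 20.6% lower. The median difference was 0.51 against -0.04 over all genes. Trim30d read 7.70 and 7.33 against 5.26, 5.32 and 5.10 (2.29 ± 0.16, adjusted p = 1.42e-05), and Trim30a 9.57 and 9.80 against 7.97, 7.71 and 7.91 (1.82 ± 0.18, adjusted p = 9.71e-05). Both lay below their level in Cdkn2a/Braf/Lkb1 melanomas on all 3 proliferation arrays. Gbp7 read 8.71 and 8.26 against 6.96, 6.83 and 6.71 (1.65 ± 0.54, adjusted p = 0.0338). Ifit3, at 8.59 and 7.88 against the proliferation values above, differed by 1.60 ± 0.34 (adjusted p = 0.00542), and Ifit2 by 1.02 ± 0.34 (adjusted p = 0.0347). Ifit2 differed by 0.48 without Cdkn2a/Braf/Lkb1 replicate 1 and by 1.56 without replicate 2, and lost its call in 4 of 12 alternative settings. The kinase Eif2ak2 read 8.01 and 7.72 against 6.79, 6.37 and 6.74 (1.23 ± 0.41, adjusted p = 0.0348). None of these genes had arrays that overlapped between the groups, as held for 26 of the 39 as higher and 2 as lower. The share of all genes is not given here. The other 10 higher genes, from Gbp9 (0.88) to Xaf1 and Stat2 (0.51 each), included Rsad2, Ly6e, Parp14, Dhx58, Oas1a, Irf7 and Oasl2. Oasl1, which in mice restrains Irf7 translation, was the lower one (-0.39 ± 0.12, adjusted p = 0.0275), and its call was lost in 8 of 13 alternative settings. One of these was median centring, which moved the median of all genes from -0.04 to 0.07. Eif2ak2 and Gbp9 also lost their calls in 8 of 13 settings, and Gbp7 and Stat2 in 7 of 13.

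The count of called genes in this comparison fell when an array was left out, and so did that of all genes. Without any 1 proliferation array 9 or 10 interferon-stimulated genes were higher. Of all genes 3091 to 3459 were then higher, against 3991 with every array. Leaving out a Cdkn2a/Braf/Lkb1 array leaves 1 in that group, so only differences are given. The median difference of the interferon-stimulated genes was 0.41 without replicate 1 and 0.55 without replicate 2, against -0.07 and 0.002 over all genes. Irf7, Trim30a and Trim30d kept their calls in every alternative setting tried. Ly6e, higher by 0.82 ± 0.21 (adjusted p = 0.0121), turned to -0.36 (adjusted p = 0.269) when arrays were scaled to a common interquartile range. Of the marker lists, 7 of 12 macrophage, 3 of 4 pan-leukocyte, 5 of 10 endothelial and 5 of 10 fibroblast markers were higher in these melanomas, and 12 of 13 keratinocyte and 9 of 12 melanocyte markers were lower. The part of these cell types in the differences was not tested.

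The tissues were also set against the sorted melanocytes, where the purification differs together with the group. Against day 19 Cdkn2a/Braf melanocytes, Cdkn2a/Braf melanomas had 13 genes higher and none lower, when 12.6% of all genes were called, 7.17% as higher and 5.46% as lower. Ly6e (3.28 ± 0.23), Samd9l (2.96 ± 0.34) and Trim30a (2.34 ± 0.20) differed most, with adjusted p of 1.38e-05, 0.000267 and 4.46e-05. Parp14 (1.89), Gbp9 (1.86), Ifih1 (1.73), Ifi27 (1.68), Ifitm3 (1.54), Dtx3l (1.47), Ifit2 (1.47), Parp9 (1.07), Oasl2 (1.04) and Dhx58 (0.90) completed the calls. Parp9 lost its call in 9 of 10 alternative settings, Ifit2 in 3 of 10 and Dtx3l in 3 of 11. Samd9l was 8.46 and 8.56 and Parp14 7.42 and 7.04 in these melanomas, and Ifih1 was 7.51 and 7.36, each above both day 19 arrays given above. Pan-leukocyte markers were higher in 3 of 4, macrophage markers in 8 of 12 and fibroblast markers in 10 of 10. Endothelial markers were higher in 6 of 10 and T and NK cell markers in 2 of 13. Melanocyte markers were lower in 11 of 12, with a median difference of -5.35, and none of 13 keratinocyte markers was called. The part of these cells in the differences was not tested.

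Against day 50 melanocytes the same melanomas had 4 genes higher and 5 lower, 23.1% of the 39, when 32.4% of all genes were called, 15.5% as higher and 16.9% as lower. Trim30a, at 5.89 and 5.79 on the day 50 arrays, was higher in the melanomas by 2.24 ± 0.20 (adjusted p = 7.73e-05). Eif2ak2 (1.52 ± 0.45), Ifit2 (1.43 ± 0.37) and Oasl2 (0.54 ± 0.18) were higher too, with adjusted p of 0.0288, 0.0181 and 0.0441. Their size depended on single arrays. Eif2ak2 differed by 0.65 without day 50 replicate 1 and by 2.39 without replicate 2, Oasl2 by 0.28 without day 50 replicate 2, and Ifit2 by 0.94 without melanoma replicate 1. Eif2ak2 lost its call in 6 of 11 alternative settings, Oasl2 in 7 of 11 and Ifit2 in 2 of 10. Lower in the melanomas were Gbp9, at 7.52 and 7.53 (-1.44 ± 0.31, adjusted p = 0.00911), and Ifit3 (-1.44 ± 0.38, adjusted p = 0.0190). Stat2 (-0.89), Oas3 (-0.75) and Oasl1 (-0.62) were lower as well. All 5 of these had risen from day 19 to day 50 in the comparison above, which shares the day 50 arrays. Scaling to a common interquartile range gave 4 higher and 10 lower, when 2952 and 3331 of all 19937 genes were. Macrophage markers were higher in the melanomas in 11 of 12, pan-leukocyte markers in 3 of 4 and fibroblast markers in 4 of 10. Melanocyte markers were lower in 10 of 12 and keratinocyte markers in 3 of 13, 1 of 10 endothelial markers was higher and 2 lower, and 1 of 13 T and NK cell markers lay each way. Their part in these differences was not tested.

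In the proliferations, set against day 50 melanocytes, 2 genes were higher and 7 lower, when 18.3% of all genes were called, 9.11% as higher and 9.2% as lower. Trim30a was higher by 2.02 ± 0.18 and Trim30d by 1.20 ± 0.16, with adjusted p of 0.000109 and 0.000807. Ifit3 was lower by the widest margin (-2.79 ± 0.34, adjusted p = 0.000621), and Gbp9, at 6.79, 6.86 and 6.56, by -2.23 ± 0.29 (adjusted p = 0.000794). Stat2 read 7.08, 7.31 and 7.05, below both day 50 arrays (-1.28 ± 0.16, adjusted p = 0.000592). Xaf1 (-0.70) and Oas3 (-0.57) were lower with them. Gbp7 (-1.79) and Bst2 (-1.53) were lower too, and both calls were lost without the first day 50 array, on which these genes stood out (-0.55 and -0.44), and also without any 1 proliferation array. Macrophage markers were higher in the proliferations in 8 of 12, pan-leukocyte markers in 3 of 4, fibroblast markers in 5 of 10 and T and NK cell markers in 3 of 13. Keratinocyte markers were higher in 3 of 13 and lower in 1, melanocyte markers were lower in 9 of 12 and endothelial markers in 3 of 10. The part of these cells in the differences was not tested.

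The sets of higher genes can be compared between contrasts that share no arrays. Ly6e alone was among both the 15 genes higher at day 50 and the 5 higher in Cdkn2a/Braf/Lkb1 than Cdkn2a/Braf melanomas. It made up 6.67% of the first and 20% of the second, when 12.8% and 38.5% of all 39 genes were higher in the other contrast. The 15 and the 16 higher in Cdkn2a/Braf/Lkb1 melanomas than in proliferations had 6 in common, which were Gbp9, Ifit3, Ly6e, Parp14, Stat2 and Xaf1 (40% and 37.5%). Of all 39 genes 41.0% were higher in the second of these contrasts and 38.5% in the first, so the shares in common were at the background. Trim30a and Trim30d were not called at day 50. Over the 8 comparisons 27 genes were called at least once, and 12 never were. The 12 were Irf1, Irf9, Ifit1, Oas2, Zbp1, Adar, Mx1, Mx2, Cmpk2, Irgm1, Usp18 and Ifi35.

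The rest of the pathway was read from lists of ligands, receptors, signalling components and further target genes, whose counts stand beside the shares of all genes called higher and lower in each comparison. At day 50, when those shares were 11.1% and 14.5%, 1 of 14 measured interferon genes was higher than at day 19 (Ifna5, 0.86 ± 0.25, adjusted p = 0.0316), while Ifnb1 lay between 4.34 and 5.06 on all 13 arrays, well below the median gene. Of 6 receptor genes Ifngr2 was lower (-1.53 ± 0.26, adjusted p = 0.00291). Of 10 JAK, STAT and IRF genes 2 were higher, Irf3 (0.51) and Nlrc5 (0.75), and 5 lower, namely the melanocyte factor Irf4 (-3.18 ± 0.39, adjusted p = 0.000487), Stat3 (-1.36), the kinases Jak2 (-1.02) and Jak1 (-1.01), and Irf2 (-0.44). Of 16 sensing genes Samhd1 (0.88) and Ikbke (0.55) were higher and Myd88 (-1.65), Tbk1 (-1.45) and Sting1 (-0.66) lower. Of 38 further interferon-stimulated genes 8 were higher, with Slfn5 (2.40 ± 0.26, adjusted p = 0.000233), Gbp4 (2.05 ± 0.66, adjusted p = 0.0452), Ifitm2 (1.25) and Ifi203 (1.20) leading, and Lgals3bp (-1.34), Cxcl11 (-1.07) and Parp12 (-0.68) were lower. The rise of Gbp4 came mostly from 1 array, at 8.58 and 5.69 on the day 50 arrays against 5.09 and 5.08 at day 19. Ifitm2 was split less, at 11.05 and 9.83 against 9.20 and 9.17. Of 9 negative regulators Ptpn6 (0.52) was higher and Ptpn11 (-0.63) lower.

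In the melanomas with altered Lkb1, against those without, 1.83% of all genes were higher and 0.732% lower, and no ligand or receptor gene was called. Of the 38 further interferon-stimulated genes 4 were higher, namely Slfn2 (1.31), Lgals3bp (1.25), Gbp8 (1.17) and Herc6 (0.95), with a median difference of 0.32 against -0.04 over all genes. Against the proliferations, where 20% of all genes were higher and 20.6% lower, the same melanomas had 20 of these 38 higher and 1 lower (Cxcl11, -0.53), with Rtp4 (1.53), Ifitm1 (1.48), Gbp8 (1.45) and Ifi202b (1.44) leading. Receptor genes were higher in 4 of 6, among them Ifnar1 (1.41 ± 0.11, adjusted p = 3.29e-05) and Ifngr1 (1.04 ± 0.19, adjusted p = 0.00253), and Ifnlr1, the receptor of type III interferon, was lower (-0.65). Ligand genes were lower in 7 of 14, with differences from -0.45 (Ifne) to -0.95 (Ifna5). Sensing genes were higher in 6 of 16, with Sting1 (2.00 ± 0.17, adjusted p = 4.95e-05) and Tlr7 (1.87 ± 0.27, adjusted p = 0.000717) leading.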

How the data were processed

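RNA was extracted with Qiagen RNeasy and amplified and labelled with NuGEN reagents, per the labels' protocols. The authors deposited linear-scale intensities (3.35 to 17698) for 34760 probe sets on each of 13 arrays. Per the submitters' processing notes they were made with RMA, whose version, and how its log2 output was turned to a linear scale, are not given in the sources used here. Arrays carry no counts, so their number limits the precision. Array medians were 68.3 to 80.5.

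Of the probe sets, 21640 name 1 gene in the platform annotation, 1321 name several and 11799 are not listed. Of the 1-gene sets, 21553 matched a current gene by Entrez identifier. The highest-mean set stood for each of 19937 genes. All columns belonged to a sample. Values were taken as log2(intensity + 1), and limma 3.58.1 (R 4.3.3) fitted 6 group means to the 13 arrays (7 residual and 3.08 prior degrees of freedom), with 8 two-sided comparisons, each adjusted by Benjamini-Hochberg over all genes at 0.05. SE is limma's moderated standard error. Low values were not filtered. The fit was run on simulated data with known changes, where each gene had the same spread in every group. That simulation does not cover the wider spread of the day 50 pair. Replicates are labelled as biological, with no mention of separate animals, so p-values measure the spread between these samples. Same-numbered replicates were not paired in the labels, and none of 30 same-numbered pairs had correlated deviations above 0.1, so no block was used.

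The genes, their classes and the marker and pathway lists were chosen with earlier results of these data known. Genes given with values on every array are those called with a difference of at least 1, plus those nearest the threshold. Others were named where they bear on a count or a split. Promoter windows are RefSeq's, on GRCm38.p6, and were searched with Python 3.11.15. Alternatives were 3 scalings between arrays, the mean over probe sets, a filter on dim genes, a pseudocount of 16, arrays of 1 material, the replicate block and leaving out each array.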

Additional observations from a re-analysis of the deposited data

How the results depend on the processing

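Groups of 2 or 3 arrays, and genes near the floor of the arrays, limit what can be resolved, and the counts of called genes moved accordingly. Leaving out an array or changing a setting also changed how many of all genes were called. Most fits without an array left 1 array in a group. The counts below are thus not read as a trait of the 39 genes. Leaving out single arrays gave these ranges of higher and lower genes. For day 50 against day 19 they were 9 to 19 and 0 to 1. For Cdkn2a/Braf/Lkb1 against Cdkn2a/Braf melanomas they were 2 to 4 and 0. Against the proliferations they were 0 to 3 and 0 to 1 for Cdkn2a/Braf melanomas, and 5 to 10 and 0 to 1 for Cdkn2a/Braf/Lkb1 melanomas. For Cdkn2a/Braf melanomas they were 1 to 5 and 3 to 10 against day 50, with 1 higher without melanoma replicate 1, 2 higher and 3 lower without melanoma replicate 2, and 8 or 10 lower without day 50 replicate 1 or 2, and 8 to 10 and 0 against day 19. For proliferations against day 50 they were 2 to 3 and 5 to 11, the 11 without day 50 replicate 2. For the settings that follow, counts over all 19937 genes stand in brackets. Quantile normalization gave 3 higher genes between the melanomas (203). It gave 8 higher and 0 lower in Cdkn2a/Braf/Lkb1 melanomas against proliferations (2203 and 2443), and 9 lower in Cdkn2a/Braf melanomas against day 50 (2941). A common interquartile range gave 3 lower at day 50 against day 19 (3284) and 3 higher between the melanomas (189). It gave 7 higher and 2 lower in Cdkn2a/Braf melanomas against proliferations (3532 and 1749), and 10 lower in them against day 50 (3331). It also turned Ly6e to -0.36 in Cdkn2a/Braf/Lkb1 melanomas against proliferations. Median centring took the 1 lower gene of that comparison to 0 (2801). Keeping genes above the median level tests 23 of the 39 and 9968 of all genes. It gave 1 higher between the melanomas (146) and 0 lower in Cdkn2a/Braf melanomas against proliferations (674). Against day 50 it gave 2 higher in Cdkn2a/Braf melanomas (2523) and 1 higher in proliferations (1302). Arrays of 1 material gave 4 higher at day 50 (1.75% of all genes) and 13 higher (18.6% of all genes) in Cdkn2a/Braf melanomas against proliferations. The replicate block, for numbers that the labels do not tie to a shared source, gave 3 higher between the melanomas (193). It gave 10 higher and 0 lower in Cdkn2a/Braf/Lkb1 melanomas against proliferations (3331 and 3271), and 2 higher in Cdkn2a/Braf melanomas against day 50 (2652). The filter tests fewer genes by construction, and for the other settings the cause was not tested. Of 845 values of single called genes under an alternative, 663 kept direction and call, 181 kept direction and lost the call, and 1 reversed.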
